A study of Caenorhabditis elegans with 6 samples.

Results

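The 9 genes described here, hpl-2, lin-61, lin-13, lin-65, let-418, mep-1, hda-1, lin-36 and tam-1, are synMuv B chromatin repressors of Caenorhabditis elegans that lie outside the DREAM complex. They were taken by gene identifier from a list of members that was drawn up with earlier results of these data known, and they are 9 of the 45510 genes in the deposited tables. The measurements are reads of small RNAs that came down with WAGO-4, a cytoplasmic Argonaute protein of the germline. All animals carried WAGO-4 tagged with 3xFLAG and GFP (genotype 3xFLAG::GFP::WAGO-4), were labelled young adults at 20 °C, and gave their small RNAs through an anti-FLAG M2 precipitation. There were 6 libraries, 1 per group: animals after lin-15b RNAi and a first untreated library, and a set of 4 with animals on HT115 (the Escherichia coli strain used to feed double-stranded RNA, dsRNA) followed by P0 animals exposed to oma-1 dsRNA and their F1 and F3 descendants. No library is an input or an untagged control, so a level is a share of the precipitate and not an enrichment. The growth notes in the labels name the OP50 strain as food for every library. For the HT115 set they also describe chilled embryos, larvae without food or ultraviolet light, differing by library, which could not be matched to the young adult stage.

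SynMuv genes owe their name to a synthetic multivulva phenotype. Worms that lose a class A and a class B gene together form extra vulvae, because the epidermis makes too much of the EGF-like signal LIN-3, whereas loss of either class alone leaves the vulva nearly normal. The class B proteins act in several chromatin complexes: DREAM at cell cycle and germline genes, a heterochromatin group around the HP1 protein HPL-2, and the nucleosome remodelling and deacetylase assemblies NuRD and MEC. They also keep germline genes silent in somatic cells, and LIN-15B, the target of the first RNAi treatment, belongs to the same class. In worms, loss of several of these repressors alters the response to dsRNA. The small RNAs that worm Argonautes of the WAGO group carry are mostly antisense copies that RNA-dependent RNA polymerases make from target transcripts.

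Library depth ran from 8667735 reads assigned to genes in P0 to 11309227 in the first untreated library. The antisense share of those reads lay between 55.6% in F1 and 77.8% on HT115, and 69.98% of them were antisense after lin-15b RNAi. The table of the first untreated library has 1 count column, taken here to add up the sense and antisense reads, so every comparison with that library uses both strands. Levels are counts per 1000000 gene-assigned reads of the strand counted (CPM), and intervals are 95% intervals for counting error only, since PCR reads are not independent molecules. The tables of lin-15b RNAi and the first untreated library list 45162 genes and those of the HT115 set 45510, and all 9 repressors are in each. With 1 library per group there is no replicate check and no p-value, and a difference of at least 2-fold serves as the mark of a large one. The targets followed their labels. lin-15B had 1722 antisense CPM after lin-15b RNAi, against 75.6 on HT115, 91.4 at P0, 114 at F1 and 112 at F3, and oma-1 had 96.5 antisense CPM on HT115, 1440 (1410 to 1470) at P0, 317 at F1 and 197 at F3. Germline markers were present throughout (10 of 10 at or above 25 antisense CPM, summed level 3064 to 3411 CPM). Of the other markers, 1 of 10 sperm genes, 0 of 8 muscle genes, 1 of 8 intestine genes and 1 of 8 neuron genes reached that level in each of the 5 stranded libraries. These marker values are levels of antisense small RNAs in the precipitate and do not measure how many cells of a type were present. In pooled worms, fewer cells of a type and less RNA per cell cannot be told apart.

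All 9 repressor genes had antisense small RNAs at or above 25 CPM in each of the 5 libraries with separate strands, from 538 reads for lin-61 to 7452 for lin-13, both after lin-15b RNAi. On HT115, 12.5% of all genes and 26.8% of 20524 protein-coding genes reached that level. Together the 9 genes took 0.433% of the antisense reads after lin-15b RNAi, 0.407% on HT115, 0.391% at P0, 0.400% at F1 and 0.410% at F3. Set per kilobase of exon, which allows genes to be compared, all 9 stood above the median of the genes at that minimum on HT115 (73.9 CPM per kb). The highest were mep-1 with 258 CPM per kb, hpl-2 with 205, lin-36 with 180.1 and tam-1 with 174. The lowest were lin-61 with 84.9 and let-418 with 81.4 CPM per kb, both within the quartiles of all genes (45.6 to 122), as were lin-65 with 107, lin-13 with 105 and hda-1 with 99.2. After lin-15b RNAi 7 of 9 stood above the median of 67.1 CPM per kb. The exceptions were lin-61 at 40.97 and let-418 at 56.7 CPM per kb, and the highest was hpl-2 at 329.

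**Figure D1:**
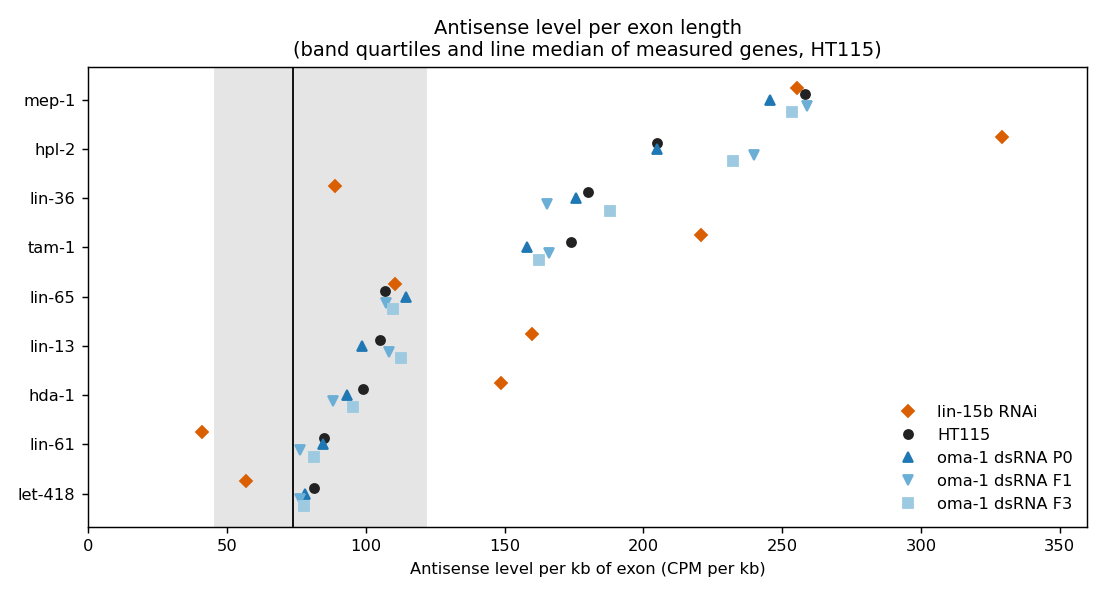
Antisense level of each gene in CPM per kb of exon (x axis), one row per gene, with a symbol for each of the 5 libraries with separate strands; the grey band and line are the quartiles and median of all genes at or above 25 CPM on HT115. The symbols of HT115, P0, F1 and F3 lie close together in every row, while the lin-15b RNAi symbol stands to the right for hpl-2, tam-1, lin-13 and hda-1 and to the left for lin-36, lin-61 and let-418.

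The heterochromatin group comes first. hpl-2 encodes one of the HP1 proteins of the worm, which bind histone H3 methylated at lysine 9. It lies on chromosome III, 10752195 to 10755530, minus strand, in WBcel235. It had 424 antisense CPM after lin-15b RNAi, and 264 on HT115, 264 at P0, 309 at F1 and 299 at F3. The lin-15b RNAi library was the highest of the 5. Over both strands hpl-2 had 354 CPM after lin-15b RNAi, 215 on HT115, 198 at P0, 193 at F1 and 229 at F3, against 445 in the first untreated library, so the 2 libraries outside the HT115 set were the highest of the 6.

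lin-61 encodes a protein of MBT repeats that binds methylated histone H3. It lies on chromosome I, 7248827 to 7251282, minus strand. It had 81.4 antisense CPM after lin-15b RNAi, and 169 on HT115, 168 at P0, 152 at F1 and 162 at F3. The lin-15b RNAi library was far below the other stranded libraries. Over both strands it had 70.6 CPM after lin-15b RNAi, 139 on HT115, 131 at P0, 102 at F1 and 128 at F3, against 71.5 in the first untreated library, so lin-15b RNAi and the first untreated library were nearly equal and both low.

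lin-13 encodes a large zinc-finger protein that binds HPL-2 and LIN-61. It lies on chromosome III, 7700338 to 7709491, minus strand, and is the only one of the 9 that overlaps other annotated genes, a pseudogene on the opposite strand over 44 nt and a small nucleolar RNA over 150 nt. The pseudogene had 2 sense reads after lin-15b RNAi and 13 on HT115, few beside those of lin-13. lin-13 had 1128 antisense CPM after lin-15b RNAi, and 742 on HT115, 695 at P0, 764 at F1 and 794 at F3. The lin-15b RNAi library was again the highest. Over both strands it had 882 CPM after lin-15b RNAi, 638 on HT115, 590.4 at P0, 593 at F1 and 656 at F3, against 981 in the first untreated library. lin-65, on chromosome I, 1755329 to 1766400, plus strand, encodes a nuclear protein that works with the histone methyltransferase MET-2. It had 289 antisense CPM after lin-15b RNAi, and 279.9 on HT115, 299 at P0, 281 at F1 and 287 at F3, so the lin-15b RNAi value fell inside the range of the other 4. Over both strands it had 272 CPM after lin-15b RNAi, 236 on HT115, 236 at P0, 196 at F1 and 232 at F3, against 273 in the first untreated library.

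Next are the genes of NuRD and MEC. let-418 encodes a Mi-2 chromatin remodelling ATPase and lies on chromosome V, 5826833 to 5832831, plus strand. It had 321 antisense CPM after lin-15b RNAi, and 460.5 on HT115, 441 at P0, 431 at F1 and 439.9 at F3. The lin-15b RNAi library was the lowest. Over both strands let-418 had 336 CPM after lin-15b RNAi, 438 on HT115, 431 at P0, 416 at F1 and 406 at F3, against 329 in the first untreated library.

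mep-1 encodes the zinc-finger partner of LET-418 in MEC and lies on chromosome IV, 11524642 to 11527954, plus strand. It had 779 antisense CPM after lin-15b RNAi, and 788 on HT115, 749 at P0, 789.6 at F1 and 773 at F3. No library stood apart. Over both strands mep-1 had 596 CPM after lin-15b RNAi, 653 on HT115, 575 at P0, 518 at F1 and 597 at F3, against 618 in the first untreated library. hda-1 encodes a class I histone deacetylase that serves in NuRD, and lies on chromosome V, 14525389 to 14527411, plus strand. It had 274 antisense CPM after lin-15b RNAi, and 182 on HT115, 171 at P0, 162 at F1 and 176 at F3. The lin-15b RNAi library was the highest, and over both strands 265 CPM after lin-15b RNAi stood beside 282 CPM in the first untreated library.

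The remaining pair belongs to neither group. lin-36 encodes a THAP domain protein and lies on chromosome III, 8016648 to 8020873, minus strand. It had 299 antisense CPM after lin-15b RNAi, and 606 on HT115, 592 at P0, 557 at F1 and 633 at F3. The lin-15b RNAi library was the lowest. Over both strands it had 322 CPM after lin-15b RNAi, 534 on HT115, 479 at P0, 451 at F1 and 529 at F3, against 225 in the first untreated library. tam-1 encodes a RING finger protein known from the silencing of transgene arrays and lies on chromosome V, 4958603 to 4963102, minus strand. It had 734 antisense CPM after lin-15b RNAi, and 578 on HT115, 526 at P0, 553 at F1 and 539.9 at F3, and the lin-15b RNAi library was the highest. Over both strands tam-1 had 608 CPM after lin-15b RNAi, 489 on HT115, 422 at P0, 393 at F1 and 431 at F3, against 639 in the first untreated library.

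**Figure D2:**
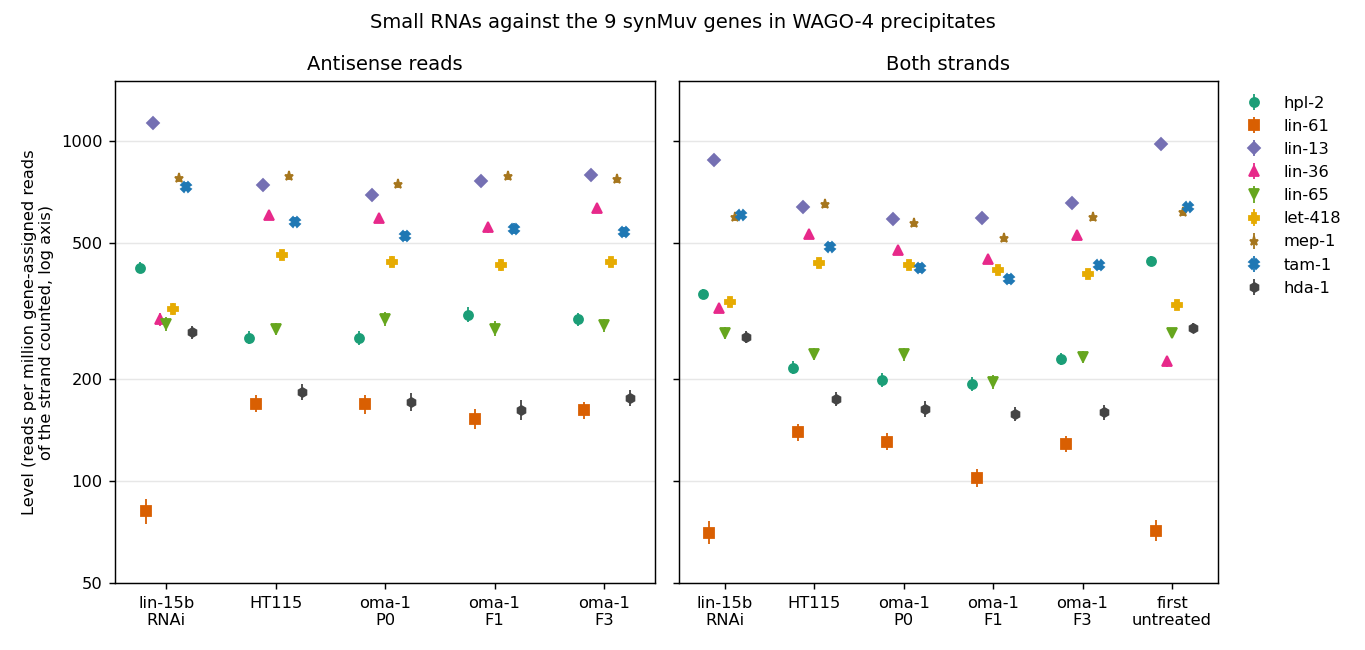
Level of each of the 9 genes in each library (y axis, CPM, log axis), for antisense reads on the left and for both strands on the right, where the first untreated library can be shown; bars are 95% Poisson intervals and are mostly smaller than the symbols. On the left the HT115, P0, F1 and F3 columns are nearly alike for each gene. On the right they differ more, with lin-61 at 139 CPM on HT115 and 102 CPM at F1. There lin-61 had 70.6 CPM after lin-15b RNAi and 71.5 CPM in the first untreated library. The same 2 libraries were farther apart for lin-36 (322 and 225 CPM) and hpl-2 (354 and 445 CPM).

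The first contrast that the labels imply sets lin-15b RNAi against the first untreated library, with the strands summed. None of the 9 genes reached 2-fold in either direction; 6.31% of the 5818 measured genes were at least 2-fold higher and 1.8% at least 2-fold lower. Their median log2 ratio was -0.05, beside 0.04 over all measured genes, and 7 of the 9 lay within the quartiles of all genes. The largest differences were those of lin-36, 1.43-fold (1.36 to 1.51), and hpl-2, 0.795-fold (0.761 to 0.831). lin-13 followed at 0.899-fold (0.874 to 0.925). The other 6 lay between 0.941-fold for hda-1 and 1.02-fold for let-418. The intervals of lin-61, 0.986-fold (0.889 to 1.09), lin-65, 0.999-fold (0.947 to 1.05), and let-418, 1.02-fold (0.975 to 1.07), included equality, and let-418, at 0.03 on the log2 scale, stood at -0.08 with median-of-ratios scaling. In the same pair of libraries lin-15B had 1250.3 CPM after lin-15b RNAi and 188 in the first untreated library. lin-15A, the class A gene of the same operon, had 35.3 CPM after lin-15b RNAi and 25.1 in the first untreated library.

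Muscle and intestine markers were higher after lin-15b RNAi than in the first untreated library, and they varied within the HT115 set too. There the muscle sum over both strands was 675 CPM on HT115, 949 at P0, 1725 at F1 and 1545 at F3. The intestine sum was 396 CPM on HT115, 447 at P0, 823 at F1 and 713 at F3. In F1 and F3 it was thus higher than after lin-15b RNAi. Over both strands the 8 muscle markers summed to 2432 CPM after lin-15b RNAi and 709 CPM in the first untreated library, and each was at least 2-fold higher (7 of them with median-of-ratios scaling); 3 of the 5 intestine markers measured were too, with a sum over all 8 of 663 CPM after lin-15b RNAi and 268 CPM in the first untreated library. The neuron markers did not follow this direction as a sum, with 63.7 CPM after lin-15b RNAi and 81.0 CPM in the first untreated library, and the sperm markers summed to 33.7 CPM after lin-15b RNAi and 35.0 CPM in the first untreated library. Of the 10 germline and oocyte markers 0 reached 2-fold; all but pgl-1 were higher, with a sum of 3905 CPM after lin-15b RNAi and 3351 CPM in the first untreated library and a median log2 ratio of 0.40 beside 0.04 over all genes. The muscle reads after lin-15b RNAi were nearly all sense (8074 sense CPM and 11.4 antisense CPM, with myo-3, myo-2, tnt-2 and mup-2 at 0 antisense reads). The strands of the first untreated library cannot be told apart, and the part of sense reads in the values of the 9 genes was not tested there.

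Set against HT115, the lin-15b RNAi library differed more. The HT115 library belongs to the other set and its title names the bacterial food, and neither can be told apart from the RNAi target. On antisense reads 0 of the 9 genes were at least 2-fold higher, where 9.44% of the 5772 measured genes were, and 2 were at least 2-fold lower, where 19.4% were. The lower ones were lin-61, 0.475-fold (0.429 to 0.526), and lin-36, 0.486-fold (0.460 to 0.512). let-418 was at 0.686-fold (0.649 to 0.724). Higher, though less than 2-fold, were hpl-2 at 1.58-fold (1.49 to 1.68), lin-13 at 1.498-fold (1.45 to 1.55), hda-1 at 1.48-fold (1.38 to 1.59) and tam-1 at 1.25-fold (1.20 to 1.30). lin-65 at 1.02-fold (0.956 to 1.08) and mep-1 at 0.974-fold (0.938 to 1.01) had intervals that include equality, and mep-1 turned to 0.48 on the log2 scale with median-of-ratios scaling.

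The median log2 ratio of the 9 genes was 0.03, beside -0.32 over all measured genes, and 6 of the 9 lay above that median. Scaling mattered for this contrast: median-of-ratios factors move the median of all genes by 0.55 and TMM factors by 0.49. With either, 3 of the 9 genes (hpl-2, lin-13 and hda-1) were at least 2-fold higher and 0 lower, while lin-61 and lin-36 stood at -0.55 and -0.52 with median-of-ratios factors. Over all genes, with 5772 measured by totals, the split of 545 higher and 1121 lower became 1142 higher and 360 lower with median-of-ratios factors. Shares of all genes are not given here for either scaling. Relative to the median of all genes, hpl-2 stood 0.98 higher on the log2 scale, lin-13 0.90 higher and hda-1 0.88 higher, and lin-61 stood at -0.75 and lin-36 at -0.72.

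**Figure D3:**
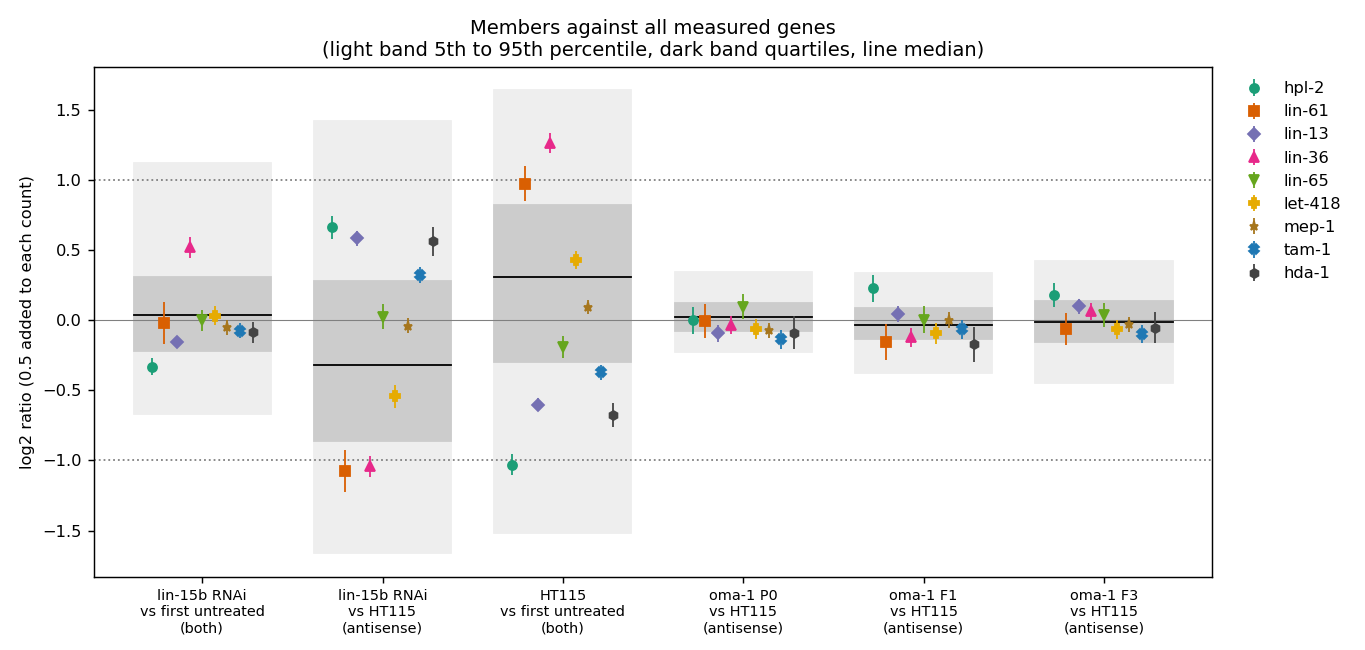
Log2 ratio of each of the 9 genes in 6 comparisons (y axis; a pseudocount of 0.5 added to each count), with 95% counting intervals; light bands run from the 5th to the 95th percentile of all measured genes, dark bands are quartiles, black lines medians, and dotted lines mark 2-fold. The genes spread from -1.07 to 0.66 for lin-15b RNAi against HT115 on antisense reads. They spread from -1.03 to 1.26 for HT115 against the first untreated library on both strands. Both are scaled by totals. The genes stay near 0 in P0, F1 and F3.

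The 2 libraries without RNAi also differed by 2-fold or more in some of the 9 genes. Their comparison sums the strands, so its ratios are not like for like with the antisense ratios above. With the strands summed, HT115 against the first untreated library gave 1 of the 9 genes at least 2-fold higher, where 18.5% of the 6170 measured genes were, and 1 at least 2-fold lower, where 9.77% were. The higher one was lin-36, 2.40-fold (2.29 to 2.52), and lin-61 stood just inside at 1.97-fold (1.80 to 2.15). The lower one was hpl-2, 0.490-fold (0.465 to 0.516), followed by hda-1 at 0.626-fold (0.590 to 0.665), lin-13 at 0.658-fold (0.638 to 0.679), tam-1 at 0.774-fold and lin-65 at 0.878-fold. let-418 at 1.35-fold (1.29 to 1.41) and mep-1 at 1.07-fold (1.03 to 1.11) were higher by totals and turned to -0.13 and -0.46 on the log2 scale with median-of-ratios factors. The median log2 ratio of the 9 was -0.19, beside 0.31 over all measured genes. With median-of-ratios or TMM factors 0 of the 9 were 2-fold higher and 3 (hpl-2, lin-13 and hda-1) lower. Over all 6170 genes measured by totals, 1142 were higher and 603 lower. With median-of-ratios factors 338 were higher and 1342 lower over all genes, and shares are not given here for either scaling. This comparison and that of lin-15b RNAi with HT115 share the HT115 library.

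The libraries fell into a pair of sets for most of the 9 genes. On antisense reads the lin-15b RNAi value lay above all of HT115, P0, F1 and F3 for 4 genes (hpl-2, lin-13, tam-1 and hda-1), where 30% of 5939 genes did so, and below all 4 for 3 genes (lin-61, lin-36 and let-418), where 57.7% did. It lay within their range for lin-65 and mep-1, so 7 of the 9 lay outside it, where 87.7% of genes did. Over both strands, lin-15b RNAi and the first untreated library were both above the HT115 set for 5 genes (hpl-2, lin-13, lin-65, tam-1 and hda-1; 24.1% of 6583 genes) and both below it for 3 (lin-61, lin-36 and let-418; 41.1%). Such a separation, in either direction, held for 65.2% of genes. mep-1 was the one of the 9 that did not separate.

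For hpl-2 the split of reads over its transcript lines also differed between the sets. The tables give 3 lines for hpl-2, K01G5.2a, K01G5.2b and K01G5.2c. The annotation gives the a transcript 691 nt, the b transcript 1055 nt and the c transcript 993 nt, with 466 nt common to all. The a transcript ends in an exon stretch of its own, chromosome III, 10753591 to 10753815, of 225 nt, 152 of them untranslated. The b and c transcripts have little sequence that is theirs alone. The counts do not give where on a transcript its reads lie.

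The K01G5.2a line held 2167 antisense reads after lin-15b RNAi, and 733 on HT115, 647 at P0, 637 at F1 and 904 at F3. That is 77.4% of the gene's antisense reads after lin-15b RNAi, and 37.6% on HT115, 40.7% at P0, 37.9% at F1 and 41.4% at F3. For scale, the largest of 3 lines had a median share of 38.8% over the 378 genes with 3 lines and at least 200 antisense reads after lin-15b RNAi, and 96.0% of them had a smaller share than hpl-2. On HT115, 46.7% of 415 such genes did. The K01G5.2b line had 322 antisense reads after lin-15b RNAi and 622 on HT115, and K01G5.2c had 309 after lin-15b RNAi and 594 on HT115, so the a line alone was higher after lin-15b RNAi.

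Against HT115, K01G5.2a was 3.26-fold (3.00 to 3.55) on antisense reads, while K01G5.2b was 0.571-fold (0.497 to 0.654) and K01G5.2c 0.574-fold (0.498 to 0.659). Of 8419 lines measured, 9.97% were at least 2-fold higher and 18.4% at least 2-fold lower. Over both strands K01G5.2a held 2341 reads after lin-15b RNAi and 4230 in the first untreated library, or 0.663-fold (0.630 to 0.698), which is 70.1% of the gene's reads after lin-15b RNAi and 84.1% in the first untreated library. K01G5.2b was 1.56-fold (1.37 to 1.78) and K01G5.2c 1.42-fold (1.24 to 1.63) in that contrast, where 6.63% of 7928 lines were at least 2-fold higher and 2.03% lower. HT115 against the first untreated library gave 0.216-fold (0.200 to 0.233) for K01G5.2a, 1.93-fold for K01G5.2b and 1.95-fold for K01G5.2c. The a line was thus the major one in the first untreated library and after lin-15b RNAi, and the 3 lines were nearly even in the HT115 set. Whether the authors' counting assigned shared reads alike in both sets was not tested.

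**Figure D4:**
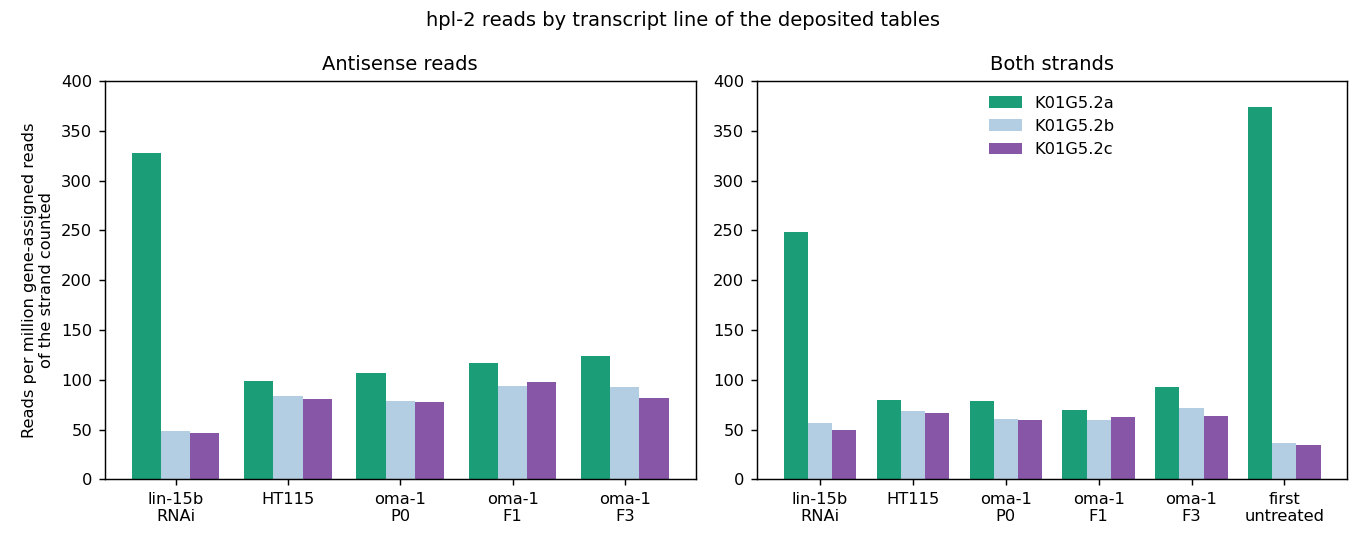
Level of the 3 hpl-2 transcript lines in each library (y axis, CPM of the strand counted), antisense reads on the left and both strands on the right. The K01G5.2a bar reaches 328 antisense CPM after lin-15b RNAi and 374 CPM over both strands in the first untreated library, and lies between 99.2 and 124 antisense CPM in HT115, P0, F1 and F3.

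lin-65 and lin-61 are the others with 3 lines. For lin-65 the lines Y71G12B.9a, Y71G12B.9b and Y71G12B.9c held 1003, 608 and 300 antisense reads after lin-15b RNAi, and 956, 571 and 542 on HT115, so the c line was the one that differed most. The lines of lin-61 were close to even in both sets. Their shares of the antisense reads were 31.2%, 36.4% and 32.4% on HT115, and 34.2%, 35.1% and 30.7% after lin-15b RNAi. Over both strands they were 32.4%, 33.5% and 34.1% in the first untreated library.

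The HT115 set carries the inheritance experiment, with P0 exposed to oma-1 dsRNA and its F1 and F3 descendants, which all share the HT115 library as their point of comparison. The 9 repressor genes stayed close to their HT115 levels in it. In P0, 0 of 9 reached 2-fold; 0.528% of 5866 measured genes were at least 2-fold higher and 0.0341% lower. In F1, 0 of 9 did so, where 1.5% of genes were higher and 0.43% lower, and in F3, 0 of 9, where 0.328% were higher and 0.587% lower. The median log2 ratio of the 9 was -0.06 in P0 (0.02 over all genes), -0.07 in F1 (-0.03) and -0.03 in F3 (-0.01). The ratios of all 9 genes in all 3 generations lay between 0.889-fold and 1.17-fold.

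The widest were those of hpl-2, at 1.00-fold (0.935 to 1.07) in P0, 1.17-fold (1.10 to 1.25) in F1 and 1.13-fold (1.07 to 1.20) in F3. hda-1 was at 0.939-fold (0.865 to 1.02) in P0, 0.889-fold (0.815 to 0.968) in F1 and 0.963-fold (0.892 to 1.04) in F3. tam-1 was at 0.910-fold (0.868 to 0.952) in P0, 0.955-fold (0.911 to 1.00) in F1 and 0.933-fold (0.894 to 0.975) in F3. Some intervals leave out equality, but they cover counting error only. lin-13 was at 0.937-fold (0.900 to 0.975) in P0, 1.03-fold in F1 and 1.07-fold (1.03 to 1.11) in F3. lin-36 was at 0.977-fold in P0, 0.918-fold (0.877 to 0.962) in F1 and 1.04-fold (1.00 to 1.09) in F3. lin-61 was at 0.995-fold in P0, 0.900-fold (0.823 to 0.983) in F1 and 0.958-fold (0.884 to 1.04) in F3. By totals lin-13, lin-36 and mep-1 were on both sides of equality. With median-of-ratios scaling 4 genes that were below HT115 in F3 by totals came out above it, lin-61 (log2 ratio 0.0091), let-418 (0.0050), hda-1 (0.017) and mep-1 (0.043), and so did tam-1 in F1 (0.0055). With TMM scaling the same 4 and tam-1 (0.011) were above HT115 in F3. let-418 lay between 0.936-fold in F1 and 0.958-fold in P0, mep-1 between 0.951-fold in P0 and 1.002-fold in F1, and lin-65 between 1.002-fold in F1 and 1.07-fold in P0. The ratio of the highest to the lowest antisense level among HT115, P0, F1 and F3 ran from 1.05 for mep-1 to 1.17 for hpl-2, with a median of 1.11 over the 9 genes and 1.19 over 5934 measured genes. All 9 were below that median. They are also more abundant than most of those genes, and the part of counting error in this was not tested.

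Sense reads were fewer, and of the 9 genes hpl-2 and lin-65 differed most in them between lin-15b RNAi and the other libraries. hpl-2 had 191 sense CPM after lin-15b RNAi, and 45.5 on HT115, 48.9 at P0, 47.9 at F1 and 43.4 at F3. lin-65 had 233 sense CPM after lin-15b RNAi, and 84.4 on HT115, 91.4 at P0, 88.9 at F1 and 85.0 at F3. In both genes the lin-15b RNAi library was well above the other 4, which were close to one another. Against HT115, scaled by totals, 2 of the 9 genes were at least 2-fold higher, where 14.4% of 5943 measured genes were. None was lower, where 12.4% were. Other scalings are not given here for sense reads. hpl-2 was 4.19-fold (3.37 to 5.26), past the 4-fold that 3.82% of genes reached, and lin-65 was 2.75-fold (2.33 to 3.27). The sense reads behind hpl-2 numbered 542 after lin-15b RNAi and 96 on HT115, spread over its lines (174, 212 and 156 after lin-15b RNAi; 25, 32 and 39 on HT115). Relative to the median of all genes, hpl-2 stood 1.97 higher on the log2 scale and lin-65 1.36 higher.

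tam-1 had 314 sense CPM after lin-15b RNAi, and 175 on HT115, 185 at P0, 192 at F1 and 144 at F3. hda-1 had 245 sense CPM after lin-15b RNAi, and 146 on HT115, 143 at P0, 152 at F1 and 116 at F3. lin-36 had 377 sense CPM after lin-15b RNAi, and 279 on HT115, 221 at P0, 318 at F1 and 253 at F3. In these 3 genes the lin-15b RNAi library was also the highest, by smaller margins. let-418 had 372 sense CPM after lin-15b RNAi, and 358 on HT115, 409 at P0, 398 at F1 and 316 at F3. lin-13 had 308 sense CPM after lin-15b RNAi, and 273 on HT115, 351 at P0, 378 at F1 and 289 at F3. mep-1 had 169 sense CPM after lin-15b RNAi, and 179 on HT115, 175 at P0, 177 at F1 and 132 at F3. For let-418, lin-13 and mep-1 the lin-15b RNAi value lay inside the range of the other libraries. lin-61 had 34.2 to 45.2 sense CPM, with lin-15b RNAi (45.2) and P0 (45.1) nearly equal.

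Against HT115 the other 7 ran from 0.943-fold for mep-1 to 1.79-fold (1.59 to 2.03) for tam-1, with hda-1 at 1.68-fold (1.47 to 1.93). The median of the 9 was 0.43 on the log2 scale, beside 0.09 over all measured genes. Sense reads of the muscle markers summed to 8074 CPM after lin-15b RNAi, and 2934 on HT115, 3071 at P0, 3872 at F1 and 5597 at F3. Their part in these values was not tested.

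The antisense share of each gene shows both strands at once. It was lower after lin-15b RNAi than on HT115 for all 9 genes, and the median of protein-coding genes was lower too, 84.3% after lin-15b RNAi and 90.6% on HT115. lin-36 had a share of 64.9% after lin-15b RNAi (Wilson interval 63.2 to 66.5), against 88.4% (87.5 to 89.2) on HT115. For lin-65 it was 74.3% (72.6 to 76.0) after lin-15b RNAi, against 92.1% (90.9 to 93.1) on HT115. hpl-2 had 83.8% after lin-15b RNAi, and 95.3% on HT115, 92.5% at P0, 89.0% at F1 and 94.8% at F3, the highest of the 9 in each library of the HT115 set.

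F1 was the library of the set with the lowest share for every one of the 9. There hda-1 had 57.2% and let-418 57.6%, while on HT115 they had 81.5% and 81.8%. The protein-coding median was 76.0% in F1 and 90.6% on HT115. Over all reads of the 9 genes together the share was 81.7% after lin-15b RNAi, 90.1% on HT115, 84.3% at P0, 73.7% at F1 and 88.4% at F3. mep-1 kept the narrowest range, 91.5% after lin-15b RNAi, 93.9% on HT115, 90.7% at P0, 84.9% at F1 and 93.9% at F3.

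**Figure D5:**
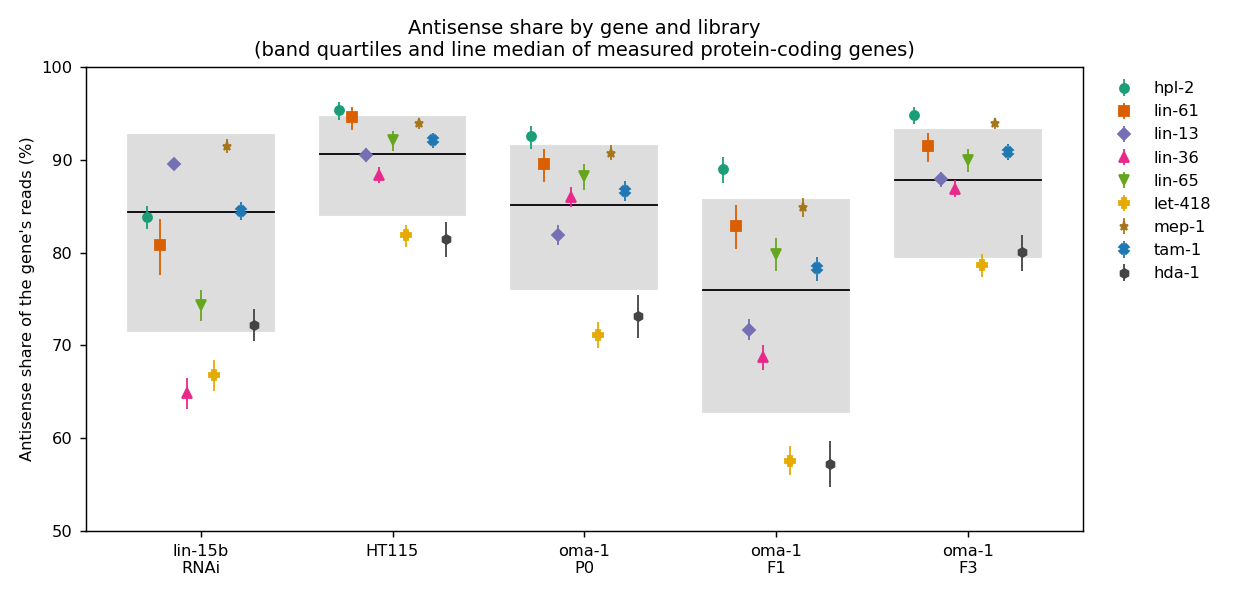
Antisense share of each gene's reads in percent (y axis, starting at 50%) in the 5 libraries with separate strands, with 95% Wilson intervals; grey bands and lines are the quartiles and median of the measured protein-coding genes of that library. let-418 and hda-1 lie at the bottom in each column of the HT115 set, and after lin-15b RNAi lin-36 at 64.9% and let-418 at 66.8% lie lowest.

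Neighbouring genes within 2000 nt that reached 25 antisense CPM in either library gave antisense log2 ratios against HT115 on either side of those of the 9. Neighbour ratios use totals over all listed genes, which sets them slightly higher than ratios computed as for the 9. Beside lin-61, which had the lowest ratio of the 9 (-1.07), adsl-1 on the same strand had 154 CPM after lin-15b RNAi and 73.3 CPM on HT115 (1.07), and bub-1 on the other strand stood at 0.03. Beside lin-65 (0.03), ddx-27 had 697 CPM after lin-15b RNAi and 209 CPM on HT115 (1.74) and Y71G12B.10 stood at -0.86. Beside lin-36 (-1.04), F44B9.5 stood at 0.43, and beside mep-1 (-0.04), M04B2.2 stood at 0.32. Beside hpl-2 (0.66), enu-3.6 lay on the same side at 0.48 and rnf-113 on the other side at -0.46. Beside hda-1 (0.56), ril-1 lay on the same side, with 25.4 CPM after lin-15b RNAi and 21.8 CPM on HT115 (0.22). lin-13, let-418 and tam-1 had no such neighbour.

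Among other genes of the pathway, the counts against HT115 that follow are on antisense reads scaled by totals, by which 9.44% of all measured genes were at least 2-fold higher after lin-15b RNAi and 19.4% at least 2-fold lower. Median-of-ratios scaling raises every log2 ratio of that comparison, so its counts stand beside them. TMM scaling gave the same counts and genes as median-of-ratios scaling in each list. Over all genes median-of-ratios scaling also gave more genes at least 2-fold higher and fewer lower, as given above.

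The DREAM subunits are the nearest relatives, and all 8 were measured. After lin-15b RNAi 0 of them were 2-fold apart from the first untreated library in either direction. Against HT115, 2 were at least 2-fold higher under each scaling, lin-35 with 625 CPM after lin-15b RNAi and 269 on HT115, and lin-52 with 262 CPM after lin-15b RNAi and 117 on HT115. By totals lin-37 was at least 2-fold lower, with 101 CPM after lin-15b RNAi and 256 on HT115, and with median-of-ratios scaling 0 were lower. lin-35 encodes the worm Rb protein. HT115 against the first untreated library gave 2 lower (lin-35 and lin-52) under each scaling, and by totals 1 higher (lin-37), which median-of-ratios scaling did not. With 1 library per group, a difference between the DREAM genes and the 9 genes could not be tested.

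Of the other NuRD and MEC subunits and histone deacetylases 7 of 8 were measured on antisense reads against HT115. By totals 0 were 2-fold higher and 2 were lower, rba-1 with 28.5 CPM after lin-15b RNAi and 81.3 on HT115, and egl-27 with 171 CPM after lin-15b RNAi and 370.4 on HT115. With median-of-ratios scaling 1 was higher, dcp-66, and 1 lower, rba-1. dcp-66 had 678 CPM after lin-15b RNAi and 378 on HT115 by totals (log2 ratio 0.82). lin-40, an MTA-type subunit, stood at 429 CPM after lin-15b RNAi and 415 on HT115. Of a list of H3K9, heterochromatin and other chromatin genes 8 of 9 were measured. cec-4, which encodes a chromodomain protein that anchors H3K9-methylated chromatin at the nuclear envelope, had 567 CPM after lin-15b RNAi and 80.1 on HT115 (log2 ratio 2.80), the highest of this list under each scaling. By totals set-32 was lower, with 143 CPM after lin-15b RNAi and 344 on HT115 (-1.29). With median-of-ratios scaling 2 were higher, cec-4 and set-2, and 0 lower. Over both strands cec-4 had 409 CPM after lin-15b RNAi and 409 in the first untreated library.

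Of the synMuv A genes 3 of 4 were measured. lin-56 passed 2-fold, with 333 CPM after lin-15b RNAi and 156 on HT115, and lin-15A lay just under it by totals (46.3 CPM after lin-15b RNAi and 23.3 on HT115, log2 ratio 0.97); with median-of-ratios scaling both were past it. The synMuv C genes, which encode a histone acetyltransferase complex, had by totals 0 higher and 1 lower of 4, mys-1 with 71.0 CPM after lin-15b RNAi and 154 on HT115, and with median-of-ratios scaling 0 past 2-fold either way. Of 8 synMuv suppressor and MES genes 0 were higher and 2 lower by totals, gfl-1 with 30.4 CPM after lin-15b RNAi and 69.1 on HT115, and mes-3 with 57.2 CPM after lin-15b RNAi and 114.7 on HT115. With median-of-ratios scaling 1 of them was higher, mes-2 (201.8 CPM after lin-15b RNAi and 123 on HT115 by totals), and 0 lower. Of 5 SUMO pathway genes 0 were higher and 3 lower by totals, aos-1 (-1.65), gei-17 (-1.58) and ubc-9, with a median log2 ratio of -1.21 beside -0.32 over all genes. With median-of-ratios scaling 0 were higher and 2 lower, aos-1 and gei-17, with a median of -0.69 beside 0.23 over all genes.

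Against the first untreated library, lin-15b RNAi gave 0 genes past 2-fold in each of these lists. In P0 and F1 against HT115, 0 genes of these lists reached 2-fold by totals, and in F3 only lin-15A did, with 54.6 CPM in F3 and 23.3 on HT115. lin-15A had 44.9 CPM in P0 and 45.5 CPM in F1, and in F1 it passed 2-fold with median-of-ratios scaling.

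The 5 genes whose profile over the 5 stranded libraries came closest to the median profile of the 9 were pqn-96, npp-16, F34D10.4, cutl-10 and C28H8.3. Closeness was the root mean square difference of centred log2 antisense CPM, 0.018 for pqn-96 to 0.024 for C28H8.3, among 5939 genes. pqn-96 had 413 CPM after lin-15b RNAi, and 413 on HT115, 399 at P0, 408 at F1 and 402 at F3. Of the 9 themselves mep-1 was closest to that median profile at 0.016 and lin-65 next at 0.054, while lin-61 and lin-36 were the farthest at 0.41. The 9 genes define that profile, so those in their middle lie near it by construction. The share of measured genes that were closer was 69.1% for lin-61 and for lin-36, and 1.72% for lin-65. It was 44.9% for hda-1, 40.2% for hpl-2, 39.6% for lin-13, 32.3% for let-418 and 23.8% for tam-1. The closest genes were those with nearly equal levels in all 5 libraries.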

How the data were processed

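The libraries hold small RNAs from anti-FLAG precipitates of 3xFLAG::GFP::WAGO-4 animals, 1 library per group. The deposited files give raw counts of reads for each annotated transcript. Per the submitters' processing notes Bowtie2 was used. Its version, the counter, the build and the annotation release are not given in the sources used. In 5 tables there are 2 count columns without names, taken as sense and antisense from microRNA genes. The first untreated library has 1 column, taken to hold both strands, since 31565 of its reads are from microRNA genes, which are sense elsewhere. Per library 3 lines carry no gene (0.000106% to 0.000296% of reads) and were left out.

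Transcript counts were added up per gene and divided by the library total of that strand. Ratios had 0.5 added to each count. Comparisons with the first untreated library or lin-15b RNAi used totals over the 45162 genes in both tables. Levels and the ratios of neighbours use all genes, which shifts HT115 levels slightly. A gene was measured at 25 CPM in the higher library and called at 2-fold. Level intervals are exact Poisson, fold intervals exact conditional binomial and shares Wilson, at 95%. Reads of overlapping genes cannot be separated further. Coordinates, exon lengths and neighbours within 2000 nt come from the Ensembl release 115 annotation of WBcel235, which held 44852 of the 45510 genes. The script was tested on simulated data. Tools were Python 3.11.15, pandas 2.3.3, scipy 1.17.1 and, for TMM factors, edgeR 4.0.16.

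The 9 genes and the gene and marker lists were chosen with earlier results of these data known. Genes named beyond the 9 are the RNAi targets and lin-15A, at most the 2 highest and 2 lowest of each list per comparison, the 5 closest profiles, and neighbours. Alternatives were TMM and median-of-ratios scaling, totals that leave out the 20 most abundant genes with the RNAi targets, a pseudocount of 5, no minimum level, both strands, another untreated library, and the transcript with the most reads only.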

Additional observations from a re-analysis of the deposited data

How the results depend on the processing

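No value past 2-fold changed sign. All 9 genes pass the minimum level, so leaving it out could not move their own median. It did move the median of all genes, for lin-15b RNAi against HT115 from -0.32 to 0.14. The 9 genes, at 0.03, were above the first of these and below the second. Totals without the most abundant genes and a pseudocount of 5 moved the median log2 ratio of the 9 genes by 0.04 or less in each comparison. For lin-15b RNAi against the first untreated library that median was -0.05, and -0.16 with median-of-ratios factors, -0.12 with TMM factors and 0.19 when antisense reads after lin-15b RNAi were set against the single column, an alternative chosen after seeing the data. For lin-15b RNAi against HT115 it was 0.03, and 0.55, 0.49 and, over both strands, 0.19, where the number past 2-fold was 0 in place of 2. HT115 against the first untreated library gave -0.19, and -0.75 and -0.73 with the same factors. F3 against HT115 gave -0.03, and 0.043 with median-of-ratios factors, 0.082 with TMM factors and -0.11 over both strands, and F1 gave -0.07, and -0.24 over both strands. With the first untreated library in place of HT115, the medians were -0.19 at P0, -0.47 at F1 and -0.22 at F3, with 2, 2 and 1 of the 9 genes past 2-fold. Apart from the scaling and the strands that each alternative changes, the cause of these shifts was not tested.

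Over all genes, the number at least 2-fold apart was 8040 to 16102 without a minimum level, beside 33 to 1745 with it. Against the first untreated library it was 1854 in P0, 2068 in F1 and 1903 in F3, beside 33, 112 and 53 against HT115, and over both strands against HT115 it was 401 in F1 and 140 in F3. Counting only the transcript with the most reads, hpl-2 had 328 antisense CPM after lin-15b RNAi and 99.2 on HT115. Of the main values recomputed, 62 were marked the same and 19 moved. Of the other values recomputed, 280 were marked the same and 145 moved. With 1 library per group these marks do not measure replicate spread. No paired analysis was possible because there is 1 library per group, and no library could be left out. The 9 genes had 538 to 7452 antisense reads each in the 5 stranded libraries, and differences between libraries have no replicates to be set against.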
